A study of Saccharomyces cerevisiae with 12 samples.

Results

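Logarithmically growing cells of the budding yeast Saccharomyces cerevisiae were compared with cells 30 min after they had left quiescence, the resting state that starved cells can enter and leave again. Every gene with a mean normalised read count of at least 10 over the 12 libraries of the series was included, which gave 5871 of the 6120 genes in the deposited table. Of the 249 genes left out, 124 had no read in any library and 125 fell below the minimum. The genes nearest to it were YCR050C with a mean of 10.1, just inside, and HSP32 with a mean of 9.75, just outside. Polyadenylated RNA of 1 strain, pJD47, was sequenced in all 12 libraries, 3 in each of 4 groups. The log growth group was labelled only as growing logarithmically, and the protocol describes cultures at 30 °C in synthetic complete medium with 2% glucose. The 30 min group came from such cultures that had been deprived of glucose and kept 7 days in water that held 10 mM deuterated acetate, were washed, and were then put into liquid medium whose composition is not given. The remaining groups were the quiescent cells themselves and cells 240 min after the return to medium, and they served here to estimate the spread and to give the levels on either side of 30 min. The submitters call the replicates biological. The labels do not give the culture density at which log growth cells were collected, or whether the replicates were separate cultures from the start. If they were not, the p-values measure in part technical spread.

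As background, glucose-grown yeast ferments: it breaks glucose down to ethanol, represses the genes for other carbon sources, and spends much of its transcription on ribosomal proteins. Starved cells in acetate rely on the glyoxylate cycle, gluconeogenesis and respiration, store trehalose and glycogen, and switch on genes for scavenging nitrogen and other nutrients. On return to rich medium, genes that assemble new ribosomes in the nucleolus are among the early responders. Cells then enter the division cycle, whose phases have their own sets of periodic genes.

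The log growth libraries held 13480102 to 15100323 reads in genes and the 30 min libraries 7943459 to 11866340, so that 1 read was worth 0.676 to 0.863 normalised units in log growth and 0.554 to 0.842 at 30 min. The 20 most abundant genes took 15.4% to 18.1% of the reads in log growth and 7.50% to 8.61% at 30 min. Replicates varied more in log growth, where genes had a median SD of 0.42 on the log2 scale, than at 30 min, where the median was 0.21. Log growth replicate 1 stood apart: it differed from the mean of replicates 2 and 3 by a median of 0.639 on the log2 scale, whereas replicates 2 and 3 differed from each other by 0.209. At 30 min the same differences were 0.331 and 0.0991. In log growth replicate 1, 623 of the 5871 genes were at least 2-fold above both other log growth libraries and 736 were at least 2-fold below both. Results are therefore given also without that library, here called without log growth replicate 1. All p-values use 1 spread per gene over the 4 groups, so those of genes that vary more in log growth may be too small.

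Of the 5871 genes tested, 1208 (20.6%) were called higher in log growth than at 30 min and 1297 (22.1%) were called lower, so that 42.7% were called in either direction. A gene was called at an adjusted p under 0.05 in limma's test with Benjamini-Hochberg adjustment over all genes tested. Called changes of at least 2-fold numbered 797 higher (13.6%) and 879 lower (15.0%), of at least 4-fold 199 and 233. The 3 log growth values did not overlap the 3 values at 30 min for 2897 genes (49.3%). Of the 2505 genes called, 2487 had the same sign within each of the 3 replicate numbers. Without log growth replicate 1 the calls numbered 1614 higher (27.5%) and 1598 lower (27.2%), and 2353 of the 2505 were also called then, with 0 changes of sign. When values were scaled instead to the total count of each library, the median log2 change over all genes moved from -0.01 to -0.74, a shift of -0.72, and the calls became 423 higher and 3003 lower. All 423 of those higher calls and all 1297 lower calls of the deposited scaling were shared, while 142 genes called higher changed sign without being called lower. Changes are given on the deposited scaling, relative to a typical gene. In such bulk samples fewer cells of a kind and less RNA per cell cannot be told apart. Where 0 members of a gene list are given as called in a direction, 0 also had an unadjusted limma p under 0.05 and 0 were called by edgeR or DESeq2, unless other counts stand beside it.

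**Figure D1:**
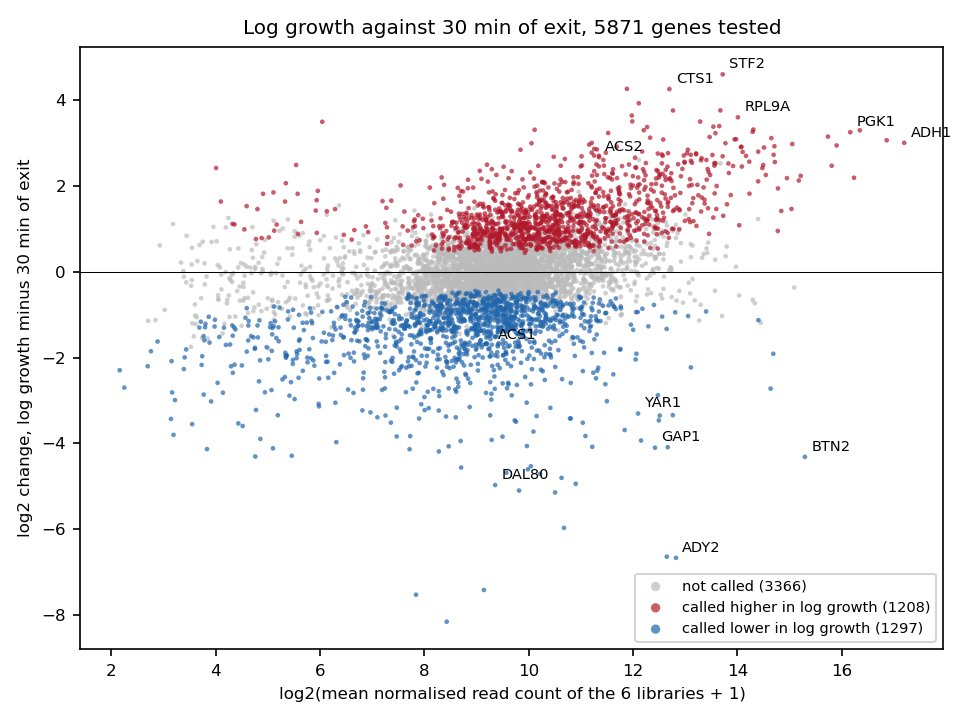
Log2 change (log growth minus 30 min of exit) of each of the 5871 genes tested, against the log2 of its mean normalised read count over the 6 libraries. Red points were called higher in log growth (1208), blue points lower (1297), and the abundant glycolytic genes PGK1 and ADH1 lie at the upper right while BTN2 and ADY2 lie far below 0.

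Values of single genes are normalised read counts in the order of replicates 1, 2 and 3, and a log2 change is log growth minus 30 min on the scale log2(value + 1), with its SE. The 12 largest changes each way and up to 4 members per list were picked from called genes whose groups did not overlap. In those genes the lack of overlap was a condition of the choice and adds nothing to the call. The 12 largest increases ran from RPS6A to STF2 and included cell surface genes, ribosomal protein genes and histone genes. STF2, which encodes a factor that stabilises the inhibited mitochondrial ATP synthase (YGR008C on the minus strand of chromosome VII from 508110 to 508364), had 4525, 38496 and 35605 in log growth, against 493, 967 and 899.6 at 30 min. The groups did not overlap, although log growth replicate 1 was far below its fellows (log2 change 4.60 ± 0.65, adjusted p = 1.71e-04). YGP1, a secreted glycoprotein gene (YNL160W on the plus strand of chromosome XIV from 336545 to 337609), had 6234, 7441 and 7829 in log growth, against 591, 306 and 279.9 at 30 min, and CTS1, the chitinase gene used in separating daughter cells (YLR286C on the minus strand of chromosome XII from 708448 to 710136), had 12038, 11916 and 13927 in log growth, against 826, 559.9 and 609.7 at 30 min. Both were high in all 3 log growth libraries alike (log2 change 4.27 ± 0.31, adjusted p = 2.31e-06 for YGP1, and log2 change 4.26 ± 0.28, adjusted p = 1.26e-06 for CTS1). HPF1, which encodes a cell wall mannoprotein, had 7503, 17696 and 13894 in log growth, against 816, 975 and 925 at 30 min. CSS1 had 5968, 10747 and 8239.5 in log growth, against 444, 615 and 544 at 30 min. Their changes were 3.76 ± 0.30 and 3.93 ± 0.25 (adjusted p = 3.68e-06 and 9.39e-07). YRO2, a membrane protein gene of the Hsp30 family, had 2517, 9958 and 10204 in log growth, against 463, 547 and 514 at 30 min (log2 change 3.64 ± 0.48, adjusted p = 1.02e-04). The histone genes HHF2 (histone H4) and HTA2 (histone H2A) changed by 3.51 ± 0.51 and 3.50 ± 0.28, and the ribosomal protein genes RPL41B, RPL9A and RPS6A by 3.76 ± 0.51, 3.60 ± 0.31 and 3.40 ± 0.34. All 5 have a near-identical copy elsewhere in the genome, so their reads may be divided uncertainly between the copies. The short gene YER138W-A, also among the 12, was low throughout, with 52.1, 117 and 186 in log growth, against 1.68, 16.7 and 16.1 at 30 min (log2 change 3.50 ± 0.68, adjusted p = 0.00145).

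The 12 largest decreases were larger than any increase, and 8 of the 12 were genes of the acetate and nitrogen lists. ADY2, which encodes a transporter of acetate (YCR010C on the minus strand of chromosome III from 132273 to 133124), had 64.9, 212 and 179.5 in log growth, against 9744, 17966 and 15374 at 30 min. Every log growth library was below every 30 min library by a wide margin (log2 change -6.67 ± 0.41, adjusted p = 8.27e-07). YAT1, a carnitine acetyltransferase gene (YAR035W on the plus strand of chromosome I from 190193 to 192256), had 54.1, 255 and 136 in log growth, against 9608, 15035 and 13431 at 30 min (log2 change -6.64 ± 0.44, adjusted p = 1.26e-06). CRC1, the carnitine carrier of the inner mitochondrial membrane, had 50.1, 104 and 94.3 in log growth, against 2749, 2878 and 2851 at 30 min. SFC1, the succinate-fumarate carrier, had 28.4, 64.7 and 66.6 in log growth, against 1854, 1846 and 1542 at 30 min. Their changes were -5.15 ± 0.27 and -5.10 ± 0.34 (adjusted p = 2.89e-07 and 1.26e-06). SIP4, an activator of gluconeogenic genes, changed by -4.94 ± 0.28, MLS1, the malate synthase of the glyoxylate cycle, by -4.71 ± 0.36, and GDH3, a glutamate dehydrogenase, by -4.81 ± 0.35. DAL80, a GATA-type repressor of nitrogen genes, had 55.5, 32.8 and 32.2 in log growth, against 1566, 1205 and 1039 at 30 min (log2 change -4.97 ± 0.27, adjusted p = 2.89e-07). YMR244W had 21.6, 76.8 and 71.1 in log growth, against 2433, 3314 and 3899.7 at 30 min. ANS1 had 8.79, 2.59 and 6.73 in log growth, against 1324, 912 and 1129.6 at 30 min. Their changes were -5.97 ± 0.46 and -7.42 ± 0.40 (adjusted p = 3.09e-06 and 2.89e-07).

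The other 2 of the 12 were nearly absent from log growth cells. LSO1 (YJR005C-A on the minus strand of chromosome X from 448477 to 448758) had 0, 7 and 1 reads in log growth, against 2899 reads in the 3 libraries at 30 min together. Per unit of depth that is a ratio of 325 (95% exact interval 165 to 754, counting error only) of 30 min over log growth. YAR035C-A (minus strand of chromosome I from 192337 to 192417) had 1, 2 and 3 reads in log growth and 2003 at 30 min, a ratio of 299.6 (137 to 817). YAR035C-A lies just past the end of YAT1, another of the 12, on the opposite strand. Whether counting used strand is not known, and whether reads of YAT1 were counted in YAR035C-A was not tested. The fitted log2 changes of LSO1 and YAR035C-A depend on the added 1, at -8.16 ± 0.73 and -7.53 ± 0.26 (adjusted p = 7.49e-06 and 5.55e-09), and were -6.61 and -6.14 when 5 was added instead. ANS1 and LSO1 peaked at 30 min among the 4 groups, as did YMR244W, whereas the other 9 were highest in quiescent cells. ANS1 averaged 34.5 ± 7.08 in quiescent cells, 1122 ± 206 after 30 min, 40.0 ± 16.2 after 240 min and 6.04 ± 3.16 during log growth (SD, n = 3 each). ADY2 averaged 86196 ± 8518 in quiescent cells, 14361 ± 4203 after 30 min, 2034 ± 616 after 240 min and 152 ± 77.3 during log growth, and DAL80 averaged 2344 ± 406 in quiescent cells, 1269.7 ± 269.5 after 30 min, 228 ± 53.1 after 240 min and 40.1 ± 13.3 during log growth. For CTS1 the averages were 2909 ± 1096 in quiescent cells, 665 ± 141 after 30 min, 5690.5 ± 1545 after 240 min and 12627 ± 1127 during log growth.

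**Figure D2:**
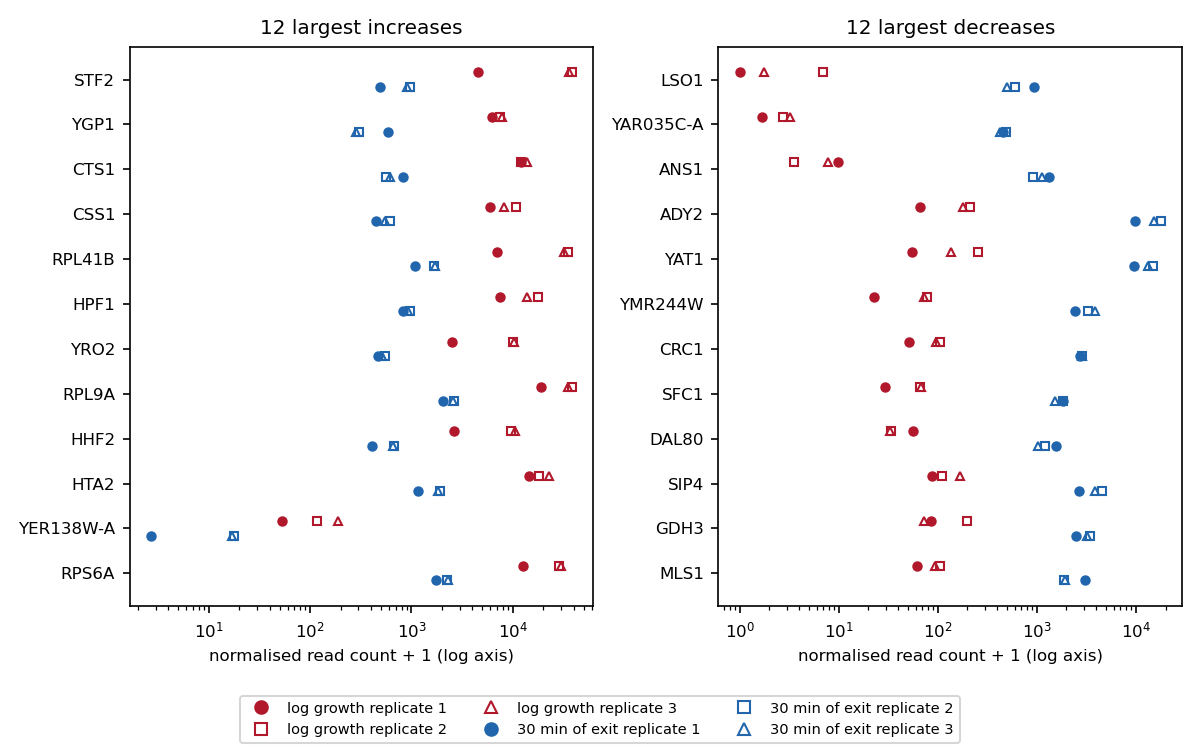
Normalised read counts plus 1, on a log axis, of the 12 genes with the largest called increases (left) and decreases (right), 1 symbol per library, log growth in red above 30 min of exit in blue. The genes were picked among those whose groups do not overlap, so in no row do the red and blue symbols overlap. Log growth replicate 1 (filled red circle) lies below the other log growth libraries for several of the increases. These include STF2, YGP1, CSS1, RPL41B, HPF1, YRO2, HHF2 and YER138W-A.

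Genes of the ribosome itself and genes that assemble it differed in opposite directions. Of the cytosolic ribosomal protein genes 106 of 137 were called higher and 0 lower (for the 0, 1 at an unadjusted p under 0.05, 0 by edgeR and 0 by DESeq2), with a median log2 change of 1.91 against -0.01 over all genes tested, and the median stayed above 0 at 1.19 with 82 higher and 3 lower under total-count scaling. Of the ribosome biogenesis factors 3 of 158 were called higher and 74 lower, with a median of -0.66. RPS31, which encodes a ribosomal protein fused to ubiquitin, had 68192, 189738 and 201218 in log growth, against 12142, 14707 and 15272 at 30 min (log2 change 3.30 ± 0.44, adjusted p = 1.23e-04). The groups did not overlap, and replicate 1 was the lowest log growth library. YAR1, which encodes a chaperone of the ribosomal protein Rps3, had 1502, 693 and 477 in log growth, against 8449, 8301 and 6874 at 30 min. All 3 log growth values were far below those at 30 min (log2 change -3.31 ± 0.32, adjusted p = 1.31e-05). NOP19 (-2.29 ± 0.51), RPF1 (-2.22 ± 0.29) and JJJ1 (-1.99 ± 0.39), all of them factors in the maturation of the large or small subunit, were called lower too (adjusted p = 0.00359, 9.02e-05 and 0.00172). RPF1 had 819, 393 and 408 in log growth, against 2541, 2287 and 2291 at 30 min, and over the 4 groups it averaged 649 ± 192 in quiescent cells, 2373 ± 146 after 30 min, 1449.7 ± 168 after 240 min and 539.9 ± 241 during log growth. The level of RPF1 in log growth was thus near that of quiescent cells, and its 30 min value the highest of the 4. The summed values of the biogenesis list had another order. They were 123804, 160553 and 140818 in quiescent cells and 371714, 357723 and 360769 at 30 min. At 240 min they were 348011, 421482 and 426125, and in log growth 314414, 225814 and 261649. Without log growth replicate 1 the ribosomal protein counts were 100 higher and 4 lower, the 4 lower ones being RPL7B, RPL14B, RPL15B and RPS9A, and the biogenesis counts were 5 higher and 95 lower. Without log growth replicate 2, 46 biogenesis genes were called lower.

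Ribosomal protein genes did not all behave alike across the log growth libraries. In replicate 1, 44 of the 137 were at least 2-fold above both other log growth libraries and 12 at least 2-fold below both, compared with 623 and 736 of all 5871 genes. RPS15 was an example of the first kind, with 17809.8, 1962 and 2463 in log growth, against 3998, 1213 and 1319 at 30 min and no call (log2 change 1.25 ± 0.75, adjusted p = 0.201), and RPL41B of the second, with 6953, 35194 and 31915 in log growth, against 1091, 1678 and 1698 at 30 min (log2 change 3.76 ± 0.51, adjusted p = 1.39e-04). RPL16B, with 15967, 2105 and 1760.3 in log growth, against 3183, 2830.1 and 2343 at 30 min, was uncalled as well (log2 change 0.50 ± 0.62, adjusted p = 0.544). The median change within replicate numbers 1, 2 and 3 was 2.28, 1.98 and 1.79 for ribosomal protein genes and -0.38, -0.93 and -0.73 for biogenesis factors. Of 24 genes of RNA polymerases I and III, which make ribosomal and transfer RNA, 0 were called higher and 9 lower (median -0.32), and 4 to 10 lower when 1 library was left out, with the fewest without log growth replicate 3. RRN11, a subunit of the core factor of RNA polymerase I, had 419, 377 and 423 in log growth, against 1609, 2058 and 2349 at 30 min (log2 change -2.28 ± 0.28, adjusted p = 6.26e-05), and RRN3, an initiation factor of the same polymerase, changed by -1.23 ± 0.28 (adjusted p = 0.00371). RPC19, shared by both polymerases, was at -1.26 ± 0.36 and RPA14, which overlaps another annotated gene on its strand, at -1.38 ± 0.41. Neither of these last calls held without log growth replicate 3 (adjusted p = 0.0539 for RPC19 and 0.0747 for RPA14).

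Most tRNA synthetase genes were called higher on the deposited scaling, and more translation factor genes were called higher than lower. Under total-count scaling fewer tRNA synthetases were called higher, and more translation factors were called lower than higher. Of the tRNA synthetases 15 of 21 were called higher and 0 lower (median 1.19, 0.47 with 6 higher and 3 lower under total-count scaling), and 15 higher and 0 lower without log growth replicate 1. DED81, the cytosolic asparaginyl-tRNA synthetase, had 10308, 5572 and 5672 in log growth, against 2022, 919.9 and 1121 at 30 min. GUS1, the glutamyl-tRNA synthetase, had 11483, 7965 and 8024 in log growth, against 2005, 1945 and 2034 at 30 min. In neither did the groups overlap (log2 change 2.43 ± 0.37, adjusted p = 2.76e-04 for DED81, and log2 change 2.18 ± 0.19, adjusted p = 6.84e-06 for GUS1). ARC1, a cofactor of synthetases, and THS1, the threonyl-tRNA synthetase, changed by 1.89 ± 0.43 and 1.83 ± 0.29. Of the translation factors 16 of 40 were called higher and 1 lower, with a median of 0.51 (-0.21 with 5 higher and 9 lower under total-count scaling). STM1, which encodes a ribosome-associated protein, had 31964, 16029 and 14108 in log growth, against 5066, 2637 and 2767 at 30 min (log2 change 2.54 ± 0.33, adjusted p = 1.07e-04). TIF11, initiation factor eIF1A, had 14024, 20237 and 20595 in log growth, against 6543, 6400.4 and 6630.0 at 30 min (log2 change 1.47 ± 0.25, adjusted p = 6.90e-04). EFT1 and EFT2 encode the same elongation factor 2 and share reads, and they changed by 1.75 ± 0.21 and 2.18 ± 0.25. Of mitochondrial ribosomal protein genes, 18 of 72 were called higher and 7 lower (median 0.22, and -0.50 with 0 higher and 32 lower under total-count scaling). Leaving out 1 library gave 10 (without 30 min replicate 2) to 25 higher and 3 (without 30 min replicate 1) to 15 lower, with the most of both without log growth replicate 1.

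The promoters of these genes carry different motifs. A pair of short motifs known from ribosome biogenesis promoters were searched on both strands from 250 bases before to 50 after the start codon of 5972 genes. They are PAC, written GATGAG and known to be bound by the repressors Tod6 and Dot6, and RRPE, written AAAAATTTT. PAC was found in 91.7% of ribosome biogenesis promoters and RRPE in 63.1%, against 20.4% and 6.97% of all promoters. Translation factors had RRPE in 65.0% but PAC in 22.5%, and tRNA synthetases had RRPE in 57.1% and PAC in 28.6%. Over all genes tested with a promoter, those with both motifs (213) were 11.3% higher and 33.3% lower, with a median log2 change of -0.32. Those with RRPE and no PAC (201) were 29.9% higher and 16.4% lower (median 0.25, and 0.08 without log growth replicate 1). Those with PAC and no RRPE (927) were 16.1% higher and 27.2% lower (median -0.15). Those with neither (4421) were 21.9% higher and 20.2% lower (median 0.05). Members of the lists above were not taken out of these classes. Of 157 biogenesis promoters 144 held PAC and 99 held RRPE, so the class with both motifs in part repeats the result of that list. The stretch from 250 to 51 bases before the start codon is shown here for a called ribosome biogenesis gene with both motifs there and for a translation factor and a tRNA synthetase with RRPE. The sequences are those of the R64 reference, read 5′ to 3′ on the strand of the gene, with motif matches in capitals. RPF1 lies at chrVIII:281245-281444, plus strand, EFT2 at chrIV:1242980-1243179, plus strand and DED81 at chrVIII:143609-143808, minus strand.
RPF1: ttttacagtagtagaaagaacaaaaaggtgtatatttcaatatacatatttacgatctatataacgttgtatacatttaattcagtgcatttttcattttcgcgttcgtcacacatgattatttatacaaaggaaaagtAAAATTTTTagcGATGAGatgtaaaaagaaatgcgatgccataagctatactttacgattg
EFT2: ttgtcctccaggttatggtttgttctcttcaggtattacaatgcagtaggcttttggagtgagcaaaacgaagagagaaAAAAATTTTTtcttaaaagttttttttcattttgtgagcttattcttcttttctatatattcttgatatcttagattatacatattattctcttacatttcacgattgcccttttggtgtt
DED81: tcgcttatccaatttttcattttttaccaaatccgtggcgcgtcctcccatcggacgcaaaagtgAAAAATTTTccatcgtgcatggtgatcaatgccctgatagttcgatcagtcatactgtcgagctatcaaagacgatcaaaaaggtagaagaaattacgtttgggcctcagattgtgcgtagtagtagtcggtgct
In RPF1 the RRPE match, on the other strand, lies just upstream of the PAC match, while in EFT2 overlapping matches on both strands form 1 run. RPF1 was lower and the other two were higher in log growth, by the values given above.

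Glycolysis and fermentation genes were mostly higher in log growth, and genes of acetate use and gluconeogenesis lower. Of the glycolysis and fermentation genes 16 of 21 were called higher and 1 lower, with a median of 2.19 (1.47 with 13 higher and 1 lower under total-count scaling). Of the genes for acetate use and gluconeogenesis 0 of 27 were called higher and 19 lower, with a median of -1.74. PGK1, phosphoglycerate kinase (YCR012W on the plus strand of chromosome III from 137746 to 138996), had 103599, 156879 and 138822 in log growth, against 18811, 11629 and 11862 at 30 min (log2 change 3.25 ± 0.31, adjusted p = 1.02e-05). CDC19, the main pyruvate kinase, had 100632, 119191 and 75373 in log growth, against 11910.1, 9661 and 11153 at 30 min (log2 change 3.15 ± 0.27, adjusted p = 6.15e-06). All 3 log growth libraries exceeded all 3 libraries at 30 min in both genes. TDH3, glyceraldehyde-3-phosphate dehydrogenase, had 214386, 237058 and 188035 in log growth, against 30046, 22262 and 24289.7 at 30 min. ENO1, an enolase, had 36378, 40031 and 33771 in log growth, against 5563, 2913 and 3057 at 30 min. Their changes were 3.07 ± 0.31 and 3.32 ± 0.33 (adjusted p = 1.83e-05 and 1.50e-05). Both have close paralogs that could share their reads. The only glycolysis and fermentation member called lower was PDC6, a minor pyruvate decarboxylase, with 58.9, 94.0 and 71.1 in log growth, against 635, 423 and 443 at 30 min (log2 change -2.73 ± 0.30, adjusted p = 2.84e-05). PDC1, the major form, had 9707, 12946 and 8706 in log growth, against 3500.3, 9104 and 8968 at 30 min, where the groups overlapped (log2 change 0.65 ± 0.39, adjusted p = 0.201).

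Besides the genes already named, the acetate group included FBP1 and PCK1, the committed enzymes of gluconeogenesis. FBP1 had 81.9, 112 and 81.5 in log growth, against 1806, 1148 and 1106 at 30 min. PCK1 had 97.4, 246 and 178 in log growth, against 4160.3, 1085 and 1051 at 30 min. Their changes were -3.85 ± 0.34 and -3.36 ± 0.59 (adjusted p = 6.84e-06 and 7.77e-04). JEN1, a lactate permease, changed by -3.69 ± 0.45, IDP2, a cytosolic isocitrate dehydrogenase, by -3.42 ± 0.35, and ICL1, the isocitrate lyase of the glyoxylate cycle, by -1.38 ± 0.35 (adjusted p = 6.27e-05, 1.80e-05 and 0.00782). FBP1, PCK1, JEN1, IDP2 and ICL1 are known targets of acetate growth and were picked with their values known, as was MEP2. The regulators CAT8 (-0.46 ± 0.37, adjusted p = 0.339) and ADR1 (-0.20 ± 0.39, adjusted p = 0.698) were not called. Of the fatty acid oxidation genes 2 of 17 were called higher and 8 lower (median -0.56). POT1, the peroxisomal thiolase, had 57.5, 151 and 142 in log growth, against 1228, 2425 and 1994 at 30 min (log2 change -4.06 ± 0.38, adjusted p = 1.02e-05). CTA1, the peroxisomal catalase, had 258, 358 and 391 in log growth, against 2959.8, 4519 and 4121 at 30 min (log2 change -3.52 ± 0.25, adjusted p = 1.86e-06). SPS19, a dienoyl-CoA reductase, and POX1, acyl-CoA oxidase, changed by -3.17 ± 0.21 and -2.38 ± 0.24. Of the peroxins, the genes that build peroxisomes, 1 of 27 were called higher and 7 lower. The shares were 3.70% and 25.9%, beside 20.6% and 22.1% of all genes. Those called lower included PEX18 (-1.31 ± 0.22), PEX21 (-1.27 ± 0.30) and PEX25 (-1.11 ± 0.26), and 6 peroxins were higher without log growth replicate 1.

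Of the nuclear genes of the respiratory chain 24 of 41 were called higher and 2 lower (median 0.89, 0.17 with 4 higher and 6 lower under total-count scaling), and the median was 0.36, 1.22 and 1.16 within replicate numbers 1, 2 and 3. COX5B, a cytochrome oxidase subunit known as the low-oxygen form, had 1328, 2532 and 2666 in log growth, against 402, 797 and 749 at 30 min (log2 change 1.74 ± 0.33, adjusted p = 0.00119), and its counterpart COX5A had 1469, 2042 and 2129 in log growth, against 1201, 866 and 958 at 30 min (log2 change 0.89 ± 0.21, adjusted p = 0.00525). CYC1, cytochrome c, had 2621, 1151 and 1195 in log growth, against 688, 492 and 450.1 at 30 min (log2 change 1.52 ± 0.34, adjusted p = 0.00396). NDE2, an external NADH dehydrogenase, was among the exceptions with 95.4, 192 and 174 in log growth, against 2743, 1829 and 1509 at 30 min (log2 change -3.73 ± 0.48, adjusted p = 9.18e-05). GUT2, the mitochondrial glycerol-3-phosphate dehydrogenase, was the other gene called lower (log2 change -1.92 ± 0.42, adjusted p = 0.00338). The 6 mitochondrially encoded messenger RNAs that passed the minimum, of 8 in the list, were all called lower (median -2.51). Leaving out 1 library gave 4 (without 30 min replicate 2) to 6 lower, with 5 without log growth replicate 1. The groups did not overlap in 5 of the 6. Levels were low, and the 8 together summed to 33.8, 40.5 and 85.3 in log growth, against 210, 402 and 435 at 30 min. OLI1, an ATP synthase subunit, had 17.6, 15.5 and 30.7 in log growth, against 109, 251 and 321 at 30 min (log2 change -3.28 ± 0.43, adjusted p = 1.03e-04). COX1, COX2, COX3, COB and ATP6 changed by -1.30 ± 0.45, -2.81 ± 0.41, -2.20 ± 0.46, -3.43 ± 0.36 and -2.08 ± 0.58. Such transcripts usually lack a long poly(A) tail, so poly(A) selection recovers them in part, and the share recovered was not tested. Of the citric acid cycle genes 3 of 17 were called higher and 1 lower (median 0.23, -0.49 with 1 higher and 6 lower under total-count scaling). The shares were 17.6% and 5.88%, beside 20.6% and 22.1% of all genes. The 1 lower was CIT3, a mitochondrial citrate synthase, with 161, 275 and 290.3 in log growth, against 1046, 1859 and 1618 at 30 min (log2 change -2.64 ± 0.28, adjusted p = 2.40e-05).

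Of the hexose transport genes 4 of 24 were called higher and 7 lower, shares of 16.7% and 29.2% beside 20.6% and 22.1% of all genes (median -0.23, -0.95 with 3 higher and 13 lower under total-count scaling). HXT3, a low-affinity transporter, had 19312, 33006 and 34512 in log growth, against 2557, 3508 and 3951 at 30 min (log2 change 3.09 ± 0.31, adjusted p = 1.74e-05). HXT4 had 3422, 10810.0 and 11806 in log growth, against 625, 853 and 851 at 30 min. HXT1 had 1716, 6024 and 6051 in log growth, against 573, 563 and 695 at 30 min. Log growth replicate 1 was the lowest of the log growth libraries in both (3.30 ± 0.58 and 2.71 ± 0.38, adjusted p = 7.75e-04 and 1.80e-04). HXT5, a transporter of slow-growing cells, had 287, 1462 and 1036 in log growth, against 3596, 5392 and 5253 at 30 min (log2 change -2.62 ± 0.45, adjusted p = 6.82e-04). The high-affinity transporter gene HXT6 had 62.2, 1446 and 1449 in log growth, against 369.6, 756 and 622 at 30 min and was uncalled (log2 change -0.13 ± 0.98, adjusted p = 0.923), with log growth replicate 1 below and the other log growth libraries above every 30 min library. Without that replicate it was called higher (1.37, adjusted p = 0.045), and its near-identical neighbour HXT7 could share its reads. Of the pentose phosphate pathway genes 4 of 13 were called higher and 2 lower (median 0.35, -0.37 with 3 higher and 5 lower under total-count scaling). The shares were 30.8% and 15.4%, beside 20.6% and 22.1% of all genes. GND1, the major 6-phosphogluconate dehydrogenase, had 7405, 13850.4 and 12949.6 in log growth, against 1177, 1866 and 1915 at 30 min (log2 change 2.77 ± 0.32, adjusted p = 4.49e-05). TKL1, transketolase, had 7809, 9410.2 and 9677 in log growth, against 2205, 1989 and 2274 at 30 min (log2 change 2.05 ± 0.23, adjusted p = 2.73e-05). ZWF1, which encodes the first enzyme of the pathway, went the other way with 254, 509 and 398 in log growth, against 1976, 2374 and 2094 at 30 min (log2 change -2.52 ± 0.30, adjusted p = 5.65e-05).

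Paralog pairs gave the contrast within 1 enzyme activity. In 30 pairs, written with the form better known from growth on glucose, or the main form, as the first member, the first member was called higher and the second lower in 5, and the reverse occurred in 0. The difference of the log2 changes was positive in 25 pairs, but in several of these its sign changed between replicate numbers. For CYC1 and CYC7 it was 3.05, -0.40 and -0.27 within replicate numbers 1, 2 and 3. For PET9 and AAC3, neither of them called, it was -1.94, 1.61 and 0.51. ADH1, the fermentative alcohol dehydrogenase, had 143680.0, 357796 and 309211 in log growth, against 30709.7, 30212 and 32947 at 30 min (log2 change 3.01 ± 0.40, adjusted p = 1.18e-04). ADH2, the ethanol-oxidising form, had 159, 429 and 319 in log growth, against 5116, 3599.6 and 3439.7 at 30 min (log2 change -3.83 ± 0.40, adjusted p = 1.97e-05). ACS2, the acetyl-CoA synthetase of glucose-grown cells (YLR153C on the minus strand of chromosome XII from 445524 to 447575), had 5373, 3692 and 4452 in log growth, against 891, 613 and 623 at 30 min (log2 change 2.67 ± 0.26, adjusted p = 1.32e-05). ACS1, the form used on acetate (YAL054C on the minus strand of chromosome I from 42881 to 45022), had 212, 361 and 324 in log growth, against 971, 1013 and 878 at 30 min (log2 change -1.70 ± 0.32, adjusted p = 0.00131). In all 4 genes the groups were apart. The other opposed pairs were GND1 and GND2, HXT1 and HXT5, and the branched-chain aminotransferases BAT1 and BAT2. BAT1 had 3520.4, 3015 and 3228 in log growth, against 2398, 1740.2 and 1977 at 30 min (log2 change 0.68 ± 0.24, adjusted p = 0.0357), and its call was lost without any 1 of 5 libraries (up to adjusted p = 0.128 without 30 min replicate 2) and its change was -0.039 with total-count scaling. That of GND2 (log2 change -1.22 ± 0.39, adjusted p = 0.0245) was lost without log growth replicate 1 (-0.74, adjusted p = 0.0592) and without 30 min replicate 1 (adjusted p = 0.0924). BAT2 had 1256, 870.3 and 771 in log growth, against 2611, 2989 and 2647 at 30 min (log2 change -1.54 ± 0.23, adjusted p = 2.76e-04). Both members were called higher for HXK2 and HXK1, TDH3 and TDH1, ENO2 and ENO1, COX5A and COX5B, and PGM1 and PGM2. The call of HXK1 (log2 change 2.55 ± 0.80, adjusted p = 0.0226) was lost without any 1 of 4 libraries (up to adjusted p = 0.093 without log growth replicate 3).

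**Figure D3:**
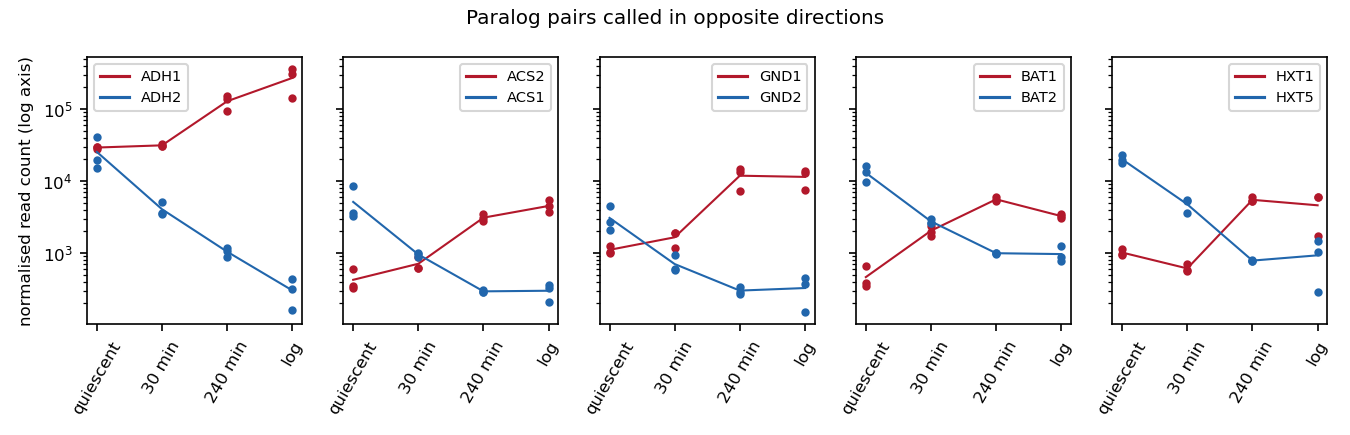
Normalised read counts on a log axis in quiescent cells, at 30 min and 240 min of exit and in log growth, for the 5 paralog pairs called in opposite directions between log growth and 30 min. Points are libraries and lines join group means: the red member is higher and the blue member lower in log growth than at 30 min, as for ACS2 (log2 2.67) and ACS1 (log2 -1.70).

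In storage and stress genes log growth replicate 1 was often far below the other log growth libraries. Of the trehalose and glycogen genes 8 of 20 were called higher and 3 lower, with a median of 1.13 (0.41 with 6 higher and 6 lower under total-count scaling), but the median was 0.00, 1.73 and 1.26 within replicate numbers 1, 2 and 3. TPS2, trehalose-6-phosphate phosphatase, had 3675, 12494 and 11897 in log growth, against 833, 1016 and 964 at 30 min. GSY2, the main glycogen synthase, had 2902, 8781 and 10515 in log growth, against 881, 1127 and 1065 at 30 min. Their groups did not overlap, with log growth replicate 1 nearest to the 30 min libraries (log2 change 3.13 ± 0.52, adjusted p = 5.29e-04 for TPS2, and log2 change 2.66 ± 0.57, adjusted p = 0.00272 for GSY2). TPS3, a regulatory subunit of trehalose synthesis, changed by 2.47 ± 0.33. PGM2, phosphoglucomutase, had 1509, 11692 and 12813 in log growth, against 918, 1143 and 1104 at 30 min (log2 change 2.54 ± 0.72, adjusted p = 0.0132), a call lost without log growth replicate 2 or 3 (up to adjusted p = 0.0618 without log growth replicate 3). Without log growth replicate 1 the list had 13 higher and 2 lower and a median of 1.73. With the replicate number as a block, 5 of its members were called lower. The stress response element, written CCCCT and bound by the activators Msn2 and Msn4, was found in 10 of the 20 promoters here and in 58.1% of those of the general stress genes, against 21.6% of all. The GSY2 promoter, chrXII:660466-660665, plus strand of R64, is shown from 250 to 51 bases before the start codon with its element in capitals.
GSY2: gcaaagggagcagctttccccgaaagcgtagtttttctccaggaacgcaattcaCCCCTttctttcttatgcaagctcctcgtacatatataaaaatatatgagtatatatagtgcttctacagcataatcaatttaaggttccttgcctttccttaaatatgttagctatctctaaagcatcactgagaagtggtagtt

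Of the general stress genes 12 of 44 were called higher and 9 lower, shares of 27.3% and 20.5% beside the 20.6% and 22.1% of all genes, with a median of 0.38 (-0.34 with 11 higher and 16 lower under total-count scaling). Within replicate numbers 1, 2 and 3 the median was -0.86, 1.08 and 0.92. Log growth replicate 1 was at least 2-fold below both other log growth libraries for 32 of the 44 genes and at least 2-fold above both for 0. HSP12, a membrane-associated stress protein, had 1297, 38799.9 and 22735 in log growth, against 23246, 24072 and 24151 at 30 min, and was uncalled (log2 change -1.19 ± 0.99, adjusted p = 0.356), as was TMA10, a small ribosome-associated protein, with 1079, 30404 and 29085 in log growth, against 5449, 9814 and 8379 at 30 min (log2 change 0.36 ± 0.97, adjusted p = 0.788). RTC3 had 1147, 7926 and 7266 in log growth, against 289, 510.4 and 532 at 30 min and was called higher (log2 change 3.24 ± 0.60, adjusted p = 0.0011). RGI2, a gene of respiratory growth, was called lower with 14.9, 161 and 179.5 in log growth, against 1606, 2263 and 1849.5 at 30 min (log2 change -4.61 ± 0.68, adjusted p = 2.22e-04). SPG4, a stationary phase gene, had 79.8, 3568 and 2023 in log growth, against 5956, 12070.2 and 10962 at 30 min (log2 change -3.47 ± 1.06, adjusted p = 0.0194), a call lost without 30 min replicate 2 or 3 (up to adjusted p = 0.0601 without 30 min replicate 2). Without log growth replicate 1 the general stress counts were 23 higher and 8 lower, with a median of 1.04.

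Of the cytosolic heat shock chaperones 1 of 27 were called higher and 11 lower (median -0.77, and -1.62, -0.23 and -0.47 within replicate numbers 1, 2 and 3). BTN2, a factor that gathers misfolded proteins (YGR142W on the plus strand of chromosome VII from 772454 to 773686), had 1755, 5654 and 5490.3 in log growth, against 70999, 90366 and 67252 at 30 min (log2 change -4.32 ± 0.55, adjusted p = 8.09e-05). SSA3, an inducible Hsp70, had 582, 1491 and 1264 in log growth, against 10551, 11321 and 9869 at 30 min (log2 change -3.35 ± 0.48, adjusted p = 1.97e-04). In both, every log growth library was well below every 30 min library. FES1, a nucleotide exchange factor of Hsp70, and HSP82 and HSC82, the Hsp90 genes, changed by -2.23 ± 0.38, -1.91 ± 0.61 and -1.13 ± 0.28. HSP82 had 3519.7, 16762 and 19196 in log growth, against 48862, 36421 and 33930.4 at 30 min and its call was lost without 30 min replicate 1 or 2 (up to adjusted p = 0.0703 without 30 min replicate 1). SSA4, the heat-inducible Hsp70, had 1183, 14767 and 13278 in log growth, against 31607, 48884 and 43370.5 at 30 min (log2 change -2.72 ± 0.89, adjusted p = 0.0265), a call lost without log growth replicate 1 (-1.54, adjusted p = 0.0629) or without 30 min replicate 2 or 3 (up to adjusted p = 0.0742). Chaperones that work on nascent chains, with the chaperonin, form a list of which 9 of 21 were called higher and 0 lower (median 0.74, 0.02 with 2 higher and 4 lower under total-count scaling), and 14 higher with the replicate number as a block. SSB1 and SSB2, near-identical ribosome-bound Hsp70 genes, changed by 2.26 ± 0.42 and 2.16 ± 0.46. EGD1, a subunit of the nascent polypeptide-associated complex, had 6636, 4691 and 2489 in log growth, against 1661, 1834 and 1663 at 30 min (log2 change 1.31 ± 0.29, adjusted p = 0.00327). Of the endoplasmic reticulum chaperones 5 of 19 were called higher and 1 lower, shares of 26.3% and 5.26% beside 20.6% and 22.1% of all genes (median 0.08, -0.64 with 1 higher and 8 lower under total-count scaling), and 6 higher and 4 lower without log growth replicate 1. Of the mitochondrial chaperones 1 of 12 were called higher and 1 lower, shares of 8.33% and 8.33% beside 20.6% and 22.1% of all genes. ERO1, of the endoplasmic reticulum list, encodes the oxidase that drives disulfide formation in that compartment. It had 1182, 1047 and 1318 in log growth, against 5182, 4318 and 3703 at 30 min (log2 change -1.89 ± 0.21, adjusted p = 2.68e-05). Of the antioxidant enzymes 8 of 30 were called higher and 7 lower, shares of 26.7% and 23.3% beside 20.6% and 22.1% of all genes (median 0.19, -0.53 with 3 higher and 12 lower under total-count scaling), and 12 higher and 7 lower without log growth replicate 1. Among them were TRX1, a thioredoxin, at 2.78 ± 0.29 and SRX1, sulfiredoxin, at -2.06 ± 0.45 (adjusted p = 2.02e-05 and 0.00307).

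Of the autophagy genes 3 of 34 were called higher and 12 lower (median -0.36). ATG32, the receptor for removal of mitochondria, had 124, 178 and 138 in log growth, against 693, 574 and 627 at 30 min (log2 change -2.11 ± 0.20, adjusted p = 1.02e-05), and ATG39 and ATG40, receptors for the nuclear envelope and the endoplasmic reticulum, changed by -1.84 ± 0.46 and -1.86 ± 0.28. Of the vacuolar proteases 5 of 11 were called higher and 0 lower (for the 0, 0 at an unadjusted p under 0.05, 0 by edgeR and 1 by DESeq2) (median 1.00, 0.27 with 3 higher and 4 lower under total-count scaling). PRC1, carboxypeptidase Y, had 7234, 20162 and 22289.6 in log growth, against 4105, 5160.1 and 4642 at 30 min (log2 change 1.68 ± 0.36, adjusted p = 0.00299). APE1, an aminopeptidase, had 1991, 2587 and 2684 in log growth, against 652, 650.4 and 667 at 30 min (log2 change 1.87 ± 0.26, adjusted p = 1.70e-04). Counts of proteasome genes depended on the libraries. Of these 2 of 35 were called higher and 2 lower (median 0.29, -0.43 with 0 higher and 12 lower under total-count scaling), with 0 to 15 higher when 1 library was left out, the fewest without log growth replicate 3 and the most without log growth replicate 1, and 7 and 5 with the replicate number as a block. RPN4, the activator of proteasome genes, was lower (1174, 3413 and 3054 in the log growth libraries and 5146, 5651 and 5479 in the 30 min libraries), and its groups did not overlap (log2 change -1.23 ± 0.33, adjusted p = 0.00922).

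**Figure D4:**
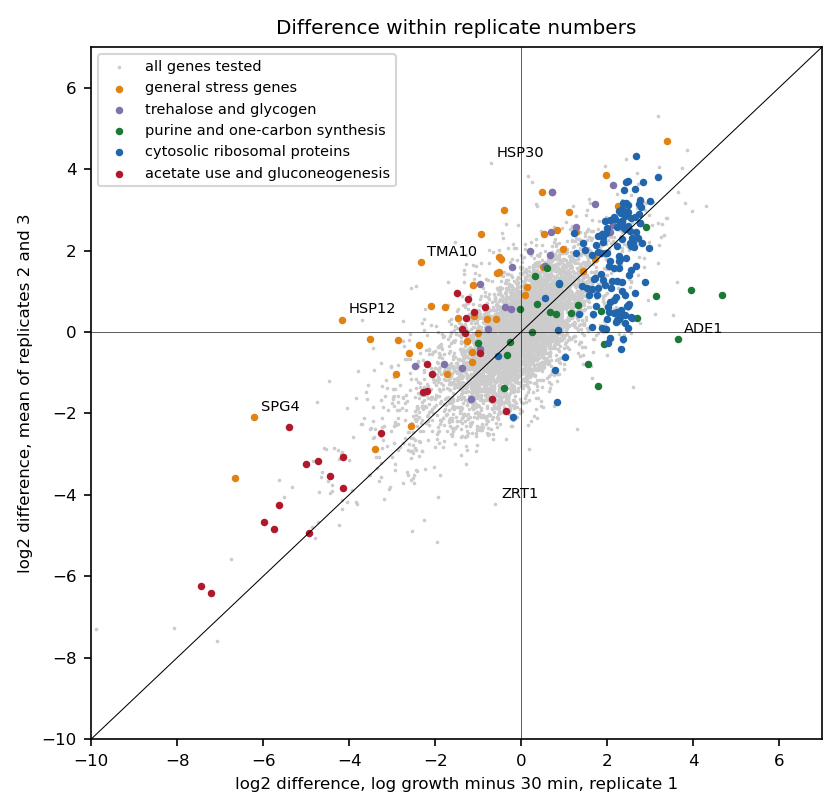
Log2 difference (log growth minus 30 min) within replicate number 1 on the horizontal axis against the mean of the differences within numbers 2 and 3 on the vertical axis, 1 point per gene, with 5 gene lists in colour and the diagonal drawn. General stress genes lie mostly above the diagonal (median -0.86 within number 1, 1.08 and 0.92 within numbers 2 and 3), while purine genes such as ADE1 lie below it and acetate genes stay at the lower left.

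Of the targets of nitrogen catabolite repression, which good nitrogen sources keep off, 1 of 36 were called higher and 24 lower (median -1.13). PUT4, the proline permease, had 41.3, 79.4 and 50.9 in log growth, against 1119, 1634 and 1640.0 at 30 min (log2 change -4.69 ± 0.31, adjusted p = 1.22e-06). GAP1, the general amino acid permease (YKR039W on the plus strand of chromosome XI from 515063 to 516871), had 1577, 355 and 369.6 in log growth, against 9168, 10813 and 10662 at 30 min. The groups did not overlap, and log growth replicate 1 was the highest log growth library (log2 change -4.10 ± 0.50, adjusted p = 6.26e-05). MEP2, an ammonium permease, had 3393, 319 and 290.3 in log growth, against 13134, 11076 and 10801 at 30 min, with the same order (log2 change -4.09 ± 0.71, adjusted p = 7.29e-04). The promoters of this list held the GATA-factor word GATAAG in 45.9% of cases, against 14.7% of all promoters. That of DAL80, chrXI:506648-506847, plus strand, is shown from 250 to 51 bases before the start codon, with a match, on the other strand, in capitals.
DAL80: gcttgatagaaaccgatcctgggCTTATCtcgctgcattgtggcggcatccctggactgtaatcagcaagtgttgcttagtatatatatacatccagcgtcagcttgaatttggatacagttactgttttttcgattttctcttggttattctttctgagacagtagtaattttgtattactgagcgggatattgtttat
Of the amino acid permeases 1 of 23 were called higher and 8 lower, and the other 14 were not called. BAP3, a permease for branched-chain amino acids that responds to external amino acids, was the 1 called higher, with 2220.2, 4069 and 4272 in log growth, against 374, 754 and 784 at 30 min (log2 change 2.48 ± 0.38, adjusted p = 3.05e-04). MMP1, the S-methylmethionine permease, had 73.7, 141 and 117 in log growth, against 1422, 1024 and 901 at 30 min (log2 change -3.35 ± 0.27, adjusted p = 3.88e-06).

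Of the amino acid synthesis genes 23 of 70 were called higher and 6 lower (median 0.53, -0.20 with 5 higher and 21 lower under total-count scaling), with 12 called higher without 30 min replicate 2 and 11 called lower without log growth replicate 1. HIS2, of histidine synthesis, had 818, 2882 and 3043 in log growth, against 445, 641 and 659 at 30 min (log2 change 1.75 ± 0.46, adjusted p = 0.00885). SHM2, the cytosolic serine hydroxymethyltransferase, had 15717, 2707 and 2079.7 in log growth, against 1264, 984 and 1038 at 30 min (log2 change 2.03 ± 0.61, adjusted p = 0.0174), with log growth replicate 1 far above the rest, and its call was lost without 30 min replicate 2 (adjusted p = 0.0521). Of the genes of methionine and sulfur 3 of 27 were called higher and 13 lower (median -0.54). STR3, a cystathionine β-lyase, had 52.8, 89.7 and 90.5 in log growth, against 1344, 1253 and 921 at 30 min (log2 change -3.92 ± 0.30, adjusted p = 2.93e-06). MET32, a zinc-finger regulator of sulfur genes, had 187, 136 and 105 in log growth, against 1796, 1457 and 1416 at 30 min (log2 change -3.47 ± 0.26, adjusted p = 2.31e-06). MHT1, a homocysteine methyltransferase, and MET2, homoserine acetyltransferase, changed by -3.42 ± 0.35 and -2.45 ± 0.27. Of the purine and one-carbon synthesis genes 13 of 25 were called higher and 2 lower, with a median of 0.69 (-0.03 with 1 higher and 5 lower under total-count scaling), and 6 higher without 30 min replicate 1 or 2. In 10 of the 25, log growth replicate 1 was at least 2-fold above both other log growth libraries. ADE17, which catalyses the last steps of inosine monophosphate synthesis, had 28816, 2870.5 and 3595 in log growth, against 1123, 1634 and 1784 at 30 min (log2 change 2.17 ± 0.65, adjusted p = 0.0184), a call lost without 30 min replicate 1 (adjusted p = 0.062). ADE13, adenylosuccinate lyase, had 22067, 3779 and 4697 in log growth, against 1418, 2049 and 2074 at 30 min (log2 change 2.01 ± 0.51, adjusted p = 0.00729). IMD2, inosine monophosphate dehydrogenase, was high in all 3 log growth libraries, with 3329, 2003 and 2099.9 in log growth, against 444, 349 and 339 at 30 min (log2 change 2.68 ± 0.26, adjusted p = 1.20e-05). In the pyrimidine list 3 of 13 were called higher and 4 lower, shares of 23.1% and 30.8% beside 20.6% and 22.1% of all genes. The uracil and uridine permeases FUR4 and FUI1 changed by -1.71 ± 0.17 and -1.46 ± 0.25.

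Of the ergosterol synthesis genes 14 of 26 were called higher and 0 lower (median 0.99, 0.27 with 8 higher and 2 lower under total-count scaling), and 15 higher and 0 lower without log growth replicate 1. ERG13, HMG-CoA synthase, had 3331, 1887 and 2208 in log growth, against 799.7, 456 and 555 at 30 min (log2 change 2.03 ± 0.30, adjusted p = 2.51e-04). ERG28 had 584, 820.3 and 766 in log growth, against 146, 191 and 227 at 30 min (log2 change 1.95 ± 0.21, adjusted p = 2.31e-05). Of the fatty acid and phospholipid synthesis genes 12 of 26 were called higher and 0 lower (for the 0, 2 at an unadjusted p under 0.05, 0 by edgeR and 0 by DESeq2), with 1 lower under the replicate block (median 0.59, -0.13 with 8 higher and 6 lower under total-count scaling), and 13 higher and 3 lower without log growth replicate 1. FAS1 and FAS2 encode the subunits of fatty acid synthase. FAS1 had 9576, 13226 and 15342 in log growth, against 1748, 3374 and 3207 at 30 min. FAS2 had 7761, 9686 and 6584 in log growth, against 1375, 1899 and 1760.3 at 30 min. Neither pair of groups overlapped (2.23 ± 0.29 and 2.25 ± 0.25, adjusted p = 1.03e-04 and 2.68e-05). ELO1, a fatty acid elongase, changed by 2.69 ± 0.31 and PIS1, phosphatidylinositol synthase, by 2.20 ± 0.40.

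Of the iron genes 0 of 28 were called higher and 12 lower (for the 0, 0 at an unadjusted p under 0.05, 1 by edgeR and 1 by DESeq2) (median -0.54), and 4 higher and 12 lower without log growth replicate 1. ARN2, a siderophore transporter, had 273, 1360.2 and 1344 in log growth, against 2547, 4978 and 4789 at 30 min (log2 change -2.31 ± 0.54, adjusted p = 0.00472). ISU1, a scaffold for iron-sulfur clusters, had 972, 2048 and 1719.9 in log growth, against 5856, 5194 and 4917 at 30 min (log2 change -1.82 ± 0.29, adjusted p = 4.11e-04). Of the zinc genes 3 of 14 were called higher and 4 lower, shares of 21.4% and 28.6% beside 20.6% and 22.1% of all genes. ZRT1, the high-affinity zinc transporter, had 3038, 223 and 270.1 in log growth, against 4599, 4689 and 4562 at 30 min (log2 change -3.02 ± 0.77, adjusted p = 0.00772). Its groups did not overlap in spite of the high log growth replicate 1, but edgeR did not call it (adjusted p = 0.063) and DESeq2 gave no adjusted p. ZAP1, the activator of zinc genes, had 149, 137 and 91.3 in log growth, against 558, 563 and 647 at 30 min (log2 change -2.25 ± 0.23, adjusted p = 1.88e-05). Of the phosphate genes 1 of 22 were called higher and 8 lower. PHO89, a sodium-coupled phosphate transporter, had 28.4, 55.2 and 20.2 in log growth, against 551, 1007 and 837 at 30 min (log2 change -4.57 ± 0.32, adjusted p = 1.86e-06), and SPL2, a regulator of phosphate uptake, changed by -3.35 ± 0.31. PHO3, an acid phosphatase that is not induced by phosphate starvation, went the other way with 4374, 4738 and 5810.5 in log growth, against 525, 809.9 and 877 at 30 min (log2 change 2.78 ± 0.23, adjusted p = 4.45e-06).

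Of the genes of daughter separation and early G1 15 of 22 were called higher and 2 lower (median 1.89, 1.17 with 14 higher and 2 lower under total-count scaling), and 16 higher and 3 lower without log growth replicate 1. EGT2, a cell wall gene of late division, had 2096, 2338 and 1593 in log growth, against 131, 234 and 256 at 30 min (log2 change 3.31 ± 0.27, adjusted p = 3.88e-06). UTR2, a chitin transglycosylase, had 6247, 2663 and 3799.6 in log growth, against 594, 449.9 and 454 at 30 min (log2 change 3.00 ± 0.36, adjusted p = 5.43e-05), and PIR1, a cell wall protein, changed by 2.87 ± 0.30. CDC6, which loads the replicative helicase and is transcribed in early G1 too, was among the exceptions with 83.2, 49.2 and 49.4 in log growth, against 188, 232 and 246 at 30 min (log2 change -1.89 ± 0.26, adjusted p = 1.44e-04). CLN2, a G1 cyclin, had 1385, 851 and 774 in log growth, against 149.8, 179 and 186 at 30 min (log2 change 2.497 ± 0.23, adjusted p = 8.79e-06), and the groups did not overlap. Of the 20 genes of G1 cyclins and Start it belongs to, 3 were called higher and 0 lower (median 0.22, -0.51 with 1 higher and 7 lower under total-count scaling), and 1 higher and 4 lower without log growth replicate 1. With all libraries the 15.0% called higher was below the 20.6% of all genes, of which 22.1% were called lower. The other members called, SWI6 and MBP1 (0.69 ± 0.25 and 0.63 ± 0.22, adjusted p = 0.0447 and 0.0321), lost the call without log growth replicate 1, among other libraries, and were at -0.036 and -0.088 with total-count scaling. Of the DNA replication genes 2 of 48 were called higher and 11 lower (median -0.25), shares of 4.17% and 22.9%. The share called lower was near the 22.1% of all genes, of which 20.6% were called higher. From 6 to 23 replication genes were called lower when 1 library was left out, the fewest without 30 min replicate 2 and the most without log growth replicate 1. RNR3, a damage-inducible subunit of ribonucleotide reductase, had 108, 93.2 and 65.8 in log growth, against 330.0, 354 and 372 at 30 min (log2 change -1.999 ± 0.24, adjusted p = 5.15e-05). Of the G2/M cluster 6 of 27 were called higher and 2 lower (median 0.21, -0.51 with 4 higher and 12 lower under total-count scaling), and 5 higher and 7 lower with a median of -0.13 without log growth replicate 1. The cluster's shares with all libraries were 22.2% and 7.41%, beside 20.6% and 22.1% of all genes. PMA1, the plasma membrane proton pump, had 60454, 113549 and 118725 in log growth, against 11808, 19184 and 21027 at 30 min (log2 change 2.47 ± 0.40, adjusted p = 4.01e-04).

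Of the histone genes 6 of 11 were called higher and 0 lower (median 1.57, 0.85 with 6 higher and 1 lower under total-count scaling). The 6 were all core histone genes with near-identical copies. HHF1 had 20015, 51915 and 67925 in log growth, against 4007, 7980.4 and 7574 at 30 min. HHT1 had 8572, 2241 and 2693 in log growth, against 936, 382 and 380.2 at 30 min, which put log growth replicate 1 lowest for HHF1 and highest for HHT1 (2.73 ± 0.51 and 2.85 ± 0.56, adjusted p = 0.00112 and 0.00164). Of the cell wall genes 17 of 32 were called higher and 4 lower (median 0.90, 0.17 with 12 higher and 8 lower under total-count scaling). CWP2, an abundant mannoprotein, had 29029, 18498 and 17926 in log growth, against 2066, 2077 and 1962 at 30 min (log2 change 3.39 ± 0.25, adjusted p = 2.34e-06), and SED1 and CCW12, other wall proteins, changed by 2.91 ± 0.34 and 2.30 ± 0.33. Of the mating genes 11 of 29 were called higher and 5 lower (median 0.66, -0.06 with 6 higher and 10 lower under total-count scaling). Those called higher included genes known to be expressed in a cells, namely BAR1 (3.00 ± 0.31), which degrades alpha factor, AGA2 (2.20 ± 0.41), an agglutinin subunit, STE2 (2.14 ± 0.25), the alpha factor receptor, and STE6 (1.87 ± 0.19), the a-factor exporter. STE2 had 11463, 6296 and 5674 in log growth, against 1711, 1606 and 1751 at 30 min. STE3, the a-factor receptor of alpha cells, had 121, 104 and 79.3 in log growth, against 381, 414 and 379 at 30 min (log2 change -1.96 ± 0.22, adjusted p = 3.46e-05). Of the meiosis and sporulation genes 0 of 37 were called higher and 22 lower (median -1.10). SPS2, a sporulation gene, had 56.8, 29.3 and 23.9 in log growth, against 325, 318 and 306 at 30 min (log2 change -3.17 ± 0.30, adjusted p = 1.02e-05). MSH4, a meiotic recombination gene, had 105, 44.9 and 60.6 in log growth, against 346, 306 and 272 at 30 min (log2 change -2.20 ± 0.37, adjusted p = 5.67e-04). These levels were low on both sides, and whether few cells or all cells carried them was not measured.

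Of the mRNA splicing factors 0 of 45 were called higher and 11 lower (for the 0, 1 at an unadjusted p under 0.05, 0 by edgeR and 0 by DESeq2) (median -0.25), with 5 to 18 lower when 1 library was left out, the fewest without 30 min replicate 2 and the most without log growth replicate 1, and 3 higher and 17 lower with the replicate number as a block. With all libraries 24.4% were called lower, near the 22.1% of all genes, of which 20.6% were called higher. PRP46 had 305, 625 and 518 in log growth, against 1855, 3349 and 2919 at 30 min (log2 change -2.50 ± 0.30, adjusted p = 4.72e-05). Of the karyopherins and nuclear pore genes 9 of 50 were called higher and 0 lower (for the 0, 2 at an unadjusted p under 0.05, 0 by edgeR and 0 by DESeq2) (median 0.25, -0.48 with 0 higher and 21 lower under total-count scaling), and 14 higher and 1 lower with the block or 12 higher and 5 lower without log growth replicate 1. The 18.0% called higher with all libraries was near the 20.6% of all genes, of which 22.1% were called lower. Of the RNA polymerase II subunits 0 of 11 were called higher and 0 lower (at an unadjusted p under 0.05 1 and 1, by edgeR 0 and 0, by DESeq2 1 and 0). Of the secretory pathway genes 15 of 37 were called higher and 2 lower (median 0.37, -0.36 with 6 higher and 8 lower under total-count scaling). SEC28 and SEC27 encode coat subunits of transport from the Golgi. SEC28 had 2659, 6655 and 6719 in log growth, against 843, 940.1 and 1039 at 30 min. SEC27 had 3937, 5259.7 and 6689 in log growth, against 1389.8, 1838 and 1756 at 30 min. Their changes were 2.39 ± 0.32 and 1.65 ± 0.22 (adjusted p = 1.24e-04 and 1.05e-04).

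**Figure D5:**
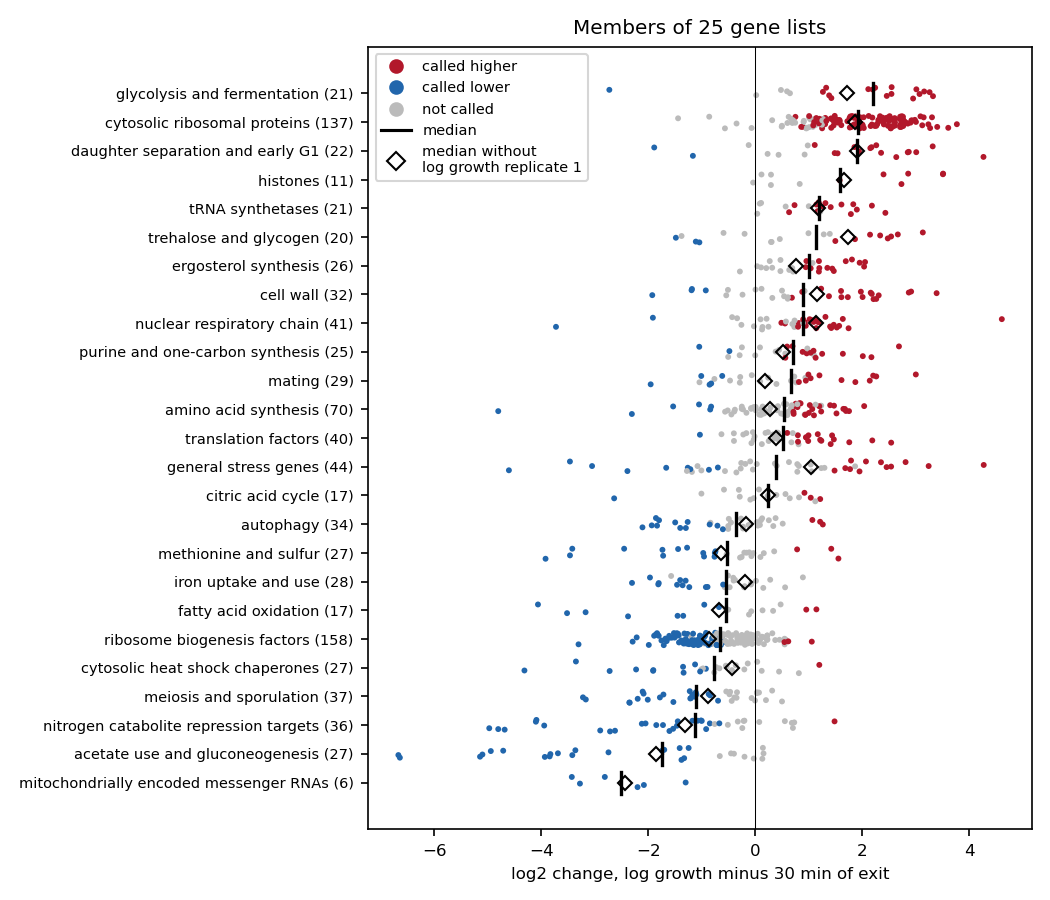
Log2 changes (log growth minus 30 min of exit) of the members of 25 gene lists, with the number tested in brackets, ordered by the list's median (black bar), with the median without log growth replicate 1 as a diamond. Red members were called higher and blue members lower in log growth: glycolysis (median 2.19) and ribosomal proteins (1.91) are near the top, and acetate use (-1.74) and the mitochondrially encoded messenger RNAs (-2.51) at the bottom.

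By its title the series concerns the enzymatic transfer of acetate between sites on histones. Of the genes of acetyl-CoA supply and use 7 of 28 were called higher and 9 lower (median 0.06, -0.67 with 7 higher and 13 lower under total-count scaling), with ACS2 up and ACS1 down as given above. The share called higher was only a little above the 20.6% of all genes. The share called lower was 32.1%, beside 22.1% of all genes. ACS2 averaged 424 ± 153 in quiescent cells, 709 ± 158 after 30 min, 3096 ± 383 after 240 min and 4506 ± 841 during log growth, and ACS1 averaged 5124 ± 2984 in quiescent cells, 954 ± 69.2 after 30 min, 293 ± 10.7 after 240 min and 299 ± 77.9 during log growth (SD, n = 3 each). Of the histone acetyltransferase complexes 7 of 39 were called higher and 13 lower (median -0.08), shares of 17.9% and 33.3% beside 20.6% and 22.1% of all genes, and leaving out 1 library gave 4 (without 30 min replicate 3) to 8 higher (without log growth replicate 1) and 7 (without 30 min replicate 1) to 12 lower. Under total-count scaling the median was -0.80 with 1 higher and 23 lower. ESA1, the catalytic subunit of the NuA4 complex, had 569, 298 and 282 in log growth, against 882, 796 and 739.9 at 30 min (log2 change -1.15 ± 0.26, adjusted p = 0.00421), and the groups did not overlap. GCN5, the catalytic subunit of SAGA, had 1145, 1054 and 1178 in log growth, against 998, 1003 and 992 at 30 min and was not called (log2 change 0.17 ± 0.15, adjusted p = 0.377), with a change of -0.55 under total-count scaling. YNG2, a NuA4 subunit, YNG1, a NuA3 subunit, and SGF11, of the deubiquitinating module of SAGA, changed by -1.92 ± 0.42, -1.67 ± 0.27 and -1.36 ± 0.18. HPA2, a tetrameric acetyltransferase, was low, with 11.5, 21.6 and 23.2 in log growth, against 93.4, 116 and 109 at 30 min (log2 change -2.49 ± 0.34, adjusted p = 1.40e-04). Of the histone deacetylase genes 2 of 34 were called higher and 6 lower (median -0.11), 6 higher and 7 lower with the replicate number as a block, and 3 (without 30 min replicate 2) to 9 lower (without log growth replicate 1) when 1 library was left out. With all libraries the shares were 5.88% and 17.6%, beside 20.6% and 22.1% of all genes. RPD3 had 921, 522 and 581 in log growth, against 757, 658 and 597 at 30 min and was not called (log2 change -0.03 ± 0.30, adjusted p = 0.941). HDA1 had 737, 1029.9 and 1242 in log growth, against 583, 789 and 753 at 30 min and was not called (log2 change 0.48 ± 0.24, adjusted p = 0.121), though it was without log growth replicate 1 (0.69, adjusted p = 0.019) and with the block (adjusted p = 0.0155). ASH1, a daughter cell repressor, and SAP30, a subunit of the Rpd3 complex, changed by 2.35 ± 0.29 and 2.09 ± 0.41, and RCO1, of the Rpd3S complex, by -1.67 ± 0.45. RCO1 overlaps a gene on the other strand, so its reads are uncertain.

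Of 88 RNA genes without a protein, 6 were called higher and 32 lower, and of the 72 small nucleolar RNAs 4 and 26, with a median of -0.41. Over all genes tested, 20.6% were called higher and 22.1% lower. LSR1, the U2 small nuclear RNA of the spliceosome, had 172, 242 and 361 in log growth, against 2431, 6196 and 4900.2 at 30 min (log2 change -4.08 ± 0.36, adjusted p = 6.77e-06), and snR82, a guide of pseudouridylation, had 61.6, 22.4 and 11.97 in log growth, against 297, 517 and 356 at 30 min (log2 change -3.83 ± 0.44, adjusted p = 4.20e-05). snR18 (-3.15 ± 0.35) lies in an intron of EFB1 and cannot be separated from its unspliced transcript. The largest increases were those of snR64 (46.7, 78.5 and 111 in log growth, against 10.1, 14.6 and 12.7 at 30 min, 2.49 ± 0.39) and snR13 (90.0, 96.6 and 156 in log growth, against 32.0, 43.2 and 44.9 at 30 min, 1.46 ± 0.27). ICR1, a long RNA upstream of FLO11 that overlaps genes on both strands and is uncertain for that reason, changed by 1.04 ± 0.35 (adjusted p = 0.0317), a call lost without any 1 of 4 libraries (up to adjusted p = 0.125 without log growth replicate 3). Mature RNAs of these kinds usually lack a poly(A) tail, so poly(A) selection recovers them in part. Whether the reads counted came from tailed molecules was not tested.

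Genes with a wide gap between log growth replicate 1 and the other log growth libraries were chosen after their values were seen, here and for RPS15, RPL16B, HSP12 and TMA10 above. HSP30, a plasma membrane stress protein, had 825, 33848 and 38416 in log growth, against 1346, 2274 and 1824 at 30 min and was not called (log2 change 2.53, adjusted p = 0.0848), but was without log growth replicate 1 (4.34, adjusted p = 1.30e-05). EGO4 had 436, 11452 and 12604 in log growth, against 388, 856 and 828 at 30 min, with log2 changes of 2.61 (adjusted p = 0.0505) with all libraries and 4.21, adjusted p = 1.56e-05 without that library. On the opposite side, ADE1, of purine synthesis, had 13378, 499 and 579.8 in log growth, against 1072, 655 and 560.4 at 30 min and was uncalled with and without it (adjusted p = 0.425 and 0.603). At least a 2-fold difference in opposite directions, down in replicate number 1 and up in numbers 2 and 3, was seen in 12 genes, among them USV1, a stress regulator, with 357, 2400.4 and 2225 in log growth, against 871, 689 and 773 at 30 min. The reverse was seen in 2 genes, ADE4 and YMR321C, and none of these 14 was called by limma (the smallest adjusted p among them was 0.334) or edgeR, 0 had an unadjusted p under 0.05, and DESeq2 called 4 higher. What set replicate 1 apart was not tested.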

How the data were processed

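The deposited table holds normalised read counts, here read as a signal in normalised units, for 6120 genes in 12 poly(A)-selected, 75 bp single-end libraries. The tools named in the submitters' processing notes are bedtools, DESeq and DESeq2, HTSeq (0.6.1) and STAR (2.5.2a), and the build is sacCer3. Their roles and parameters are not given in the sources used here. All values were whole multiples of 1 read's worth within 1e-06, so reads were recovered. The protocol does not say whether counting used strand, so genes that overlap another on the other strand are uncertain. Log2(value + 1) was fitted for 5871 genes with limma 3.58.1 (trend) in R 4.3.3, with 4 groups, 8 residual degrees of freedom and Benjamini-Hochberg adjustment, after the fit had been tested on simulated data. edgeR 4.0.16 (quasi-likelihood) and DESeq2 1.42.0 were run on the recovered reads as alternatives. Samples with the same replicate number deviated together (correlations of 0.490, 0.320 and 0.406 between log growth and 30 min). Libraries with different numbers ranged from -0.508 to 0.470, with 0.470 between log growth replicate 2 and 30 min replicate 3, so the correlations set number 1 apart but do not tell numbers 2 and 3 from each other. A fit with the replicate number as a block was added. Named genes were the 12 largest changes each way among called protein-coding genes whose groups did not overlap and whose higher group averaged 50 or more, up to 4 per list, both members of each paralog pair, 3 RNA genes each way, and ACS1, ACS2, GCN5, ESA1, RPD3 and HDA1, and a few further list members (named as chosen after their values were seen, or COX1, COX2, COX3, COB, ATP6, CAT8, ADR1, STE3 and STE6) were added with values known. The genes, lists, pairs and motifs were chosen with earlier results of these data known. Coordinates and promoters are from the NCBI RefSeq R64 assembly, in which 6115 of the genes were found. Other scalings, pseudocounts, filters and sets of libraries were tried.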

Additional observations from a re-analysis of the deposited data

How the results depend on the processing

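Leaving out 1 library gave 967 to 1614 higher and 994 to 1598 lower calls, the most of both without log growth replicate 1. Total-count scaling gave 423 higher and 3003 lower calls, 260 and 2167 of them of at least 2-fold. All other settings stayed within 1.5 times of the 1208 and 1297 reported. The smallest counts among them were 930 and 990 with only the 6 libraries compared and 989 and 1053 with a spread for each group, against 1358 and 1250 by edgeR and 1476 and 1382 by DESeq2 on recovered reads. Without replicate 1 of both groups, a setting chosen after seeing the data, the counts were 1545 and 1528. The replicate block gave 1615 higher and 1635 lower calls and shared 2504 of the 2505 reported, and of the 251 named genes it changed the calls of HDA1 and CIT2 alone, both gained. With total-count scaling 29 named genes kept their sign but were no longer called, and 4 others were newly called. A further 5 changed sign, namely SWI6 (-0.036), MBP1 (-0.088), BAT1 (-0.039), PET9 (-0.70) and GCN5 (-0.55). Of these, SWI6, MBP1 and BAT1 thereby lost their call too. HXT6 changed sign without log growth replicate 1 (1.37), and ranged from -0.89 to 1.37 as 1 library was left out. With only the 6 libraries compared, 19 of the 251 were no longer called. Libraries of a group differed by more than counting error, which alone would give a chi-square per degree of freedom of about 1. Between pairs of libraries it was 65.1 to 614.6 in log growth and 9.89 to 110 at 30 min. Genes of a few reads, such as LSO1, have a wide counting error too. The cause of the differences between libraries and between settings was not tested.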
